A study of Mus musculus with 6 samples.

Results

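The transferase genes described here were all those whose platform symbol starts with Ugt1, Ugt2, Ugt3, Sult, Gsta, Gstk, Gstm, Gsto, Gstp, Gstt, Gstz or Mgst. The array named 61 such genes, of 19057 genes named by 1 symbol: 20 UDP-glucuronosyltransferases, 16 sulfotransferases and 25 glutathione transferases. Of these, 47 had a probe bright enough to be tested (15, 8 and 24 in that order), and they stand among 13438 genes tested.

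The cells were cultured primary hepatocytes, the parenchymal cells of the liver, of male mice of the C57Bl/6J strain, and their RNA was measured on 6 Illumina mouse arrays. The 3 groups of 2 arrays each were untreated cells, cells exposed to 2 ng/mL recombinant murine TNFα for 2 hours, and cells exposed to the same dose for 2 days. TNFα, tumour necrosis factor alpha, is a cytokine that drives inflammatory gene expression in the liver. All groups were kept on collagen in medium with 5% serum, 50 nM dexamethasone, a synthetic glucocorticoid, and 1 nM insulin. The labels name no genetic change in the mice. Separate animals or cultures behind the replicates are not stated, and the spread that the p-values rest on may thus be technical. The age of the untreated cultures at harvest is not given either, so 2 days of exposure and time in culture cannot be told apart.

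These enzymes carry out the conjugation step of detoxification, in which a small polar group is joined to a drug, hormone, bile pigment or reactive metabolite so that it can be pumped out of the cell. UDP-glucuronosyltransferases sit in the endoplasmic reticulum and transfer glucuronic acid from UDP-glucuronate, cytosolic sulfotransferases transfer sulfate from the donor PAPS, and glutathione transferases join glutathione to electrophiles. The hepatocyte is a main site of all 3 reactions.

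Array intensities were deposited on a linear scale with background included, so the fold change of a dim probe is understated, and intensities of different probes cannot be compared. Over the tested genes, the correlation was 0.995 to 0.996 between the arrays of a group and 0.982 to 0.991 between groups. A gene was called when its limma p, adjusted by Benjamini-Hochberg over all 13438 genes, was under 0.05. Changes are given as log2 differences of group means with the standard error (SE), n = 2 arrays per group. A call that was lost when background was removed with the normexp method is named as such.

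After 2 hours of TNFα, 0 of the 47 tested transferase genes were called by limma, where 2.82% of all genes tested were (379 of 13438), 1.76% higher and 1.06% lower. Their log2 changes lay between -0.26 and 0.17, with a median of 0.002 against -0.012 over all genes tested. The lowest adjusted p by limma was 0.37. A single member had an unadjusted p under 0.05: Gsta3, an alpha class glutathione transferase, whose intensities were 10753 and 9650 on the untreated arrays and 7778 and 9341 at 2 hours. These groups did not overlap, as in 40.4% of all genes tested, and the log2 change was -0.26.

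After 2 days, 19 of the 47 were called against untreated cells, 8 higher and 11 lower, where 12.7% of all genes tested were called, 6.74% higher and 5.92% lower. The calls were also counted by class. Of the UDP-glucuronosyltransferases 0 of 15 rose and 4 fell, of the sulfotransferases 1 of 8 rose and 2 fell, and of the glutathione transferases 7 of 24 rose and 5 fell. Median log2 changes were -0.10, -0.08 and 0.13 in the same order, against 0.006 over all genes tested. No test of the difference between classes was made. After normexp the calls were 0 higher and 3 lower, 1 and 2, and 2 and 1 in that order of classes. In each of the 19 called genes the untreated and 2 day arrays did not overlap, as in 49.6% of all genes tested. The calls came from these same arrays, so this is no separate support. Sult1a1, Sult1d1 and Gsta4 changed by 2-fold or more, and the other 16 by less.

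**Figure D1:**
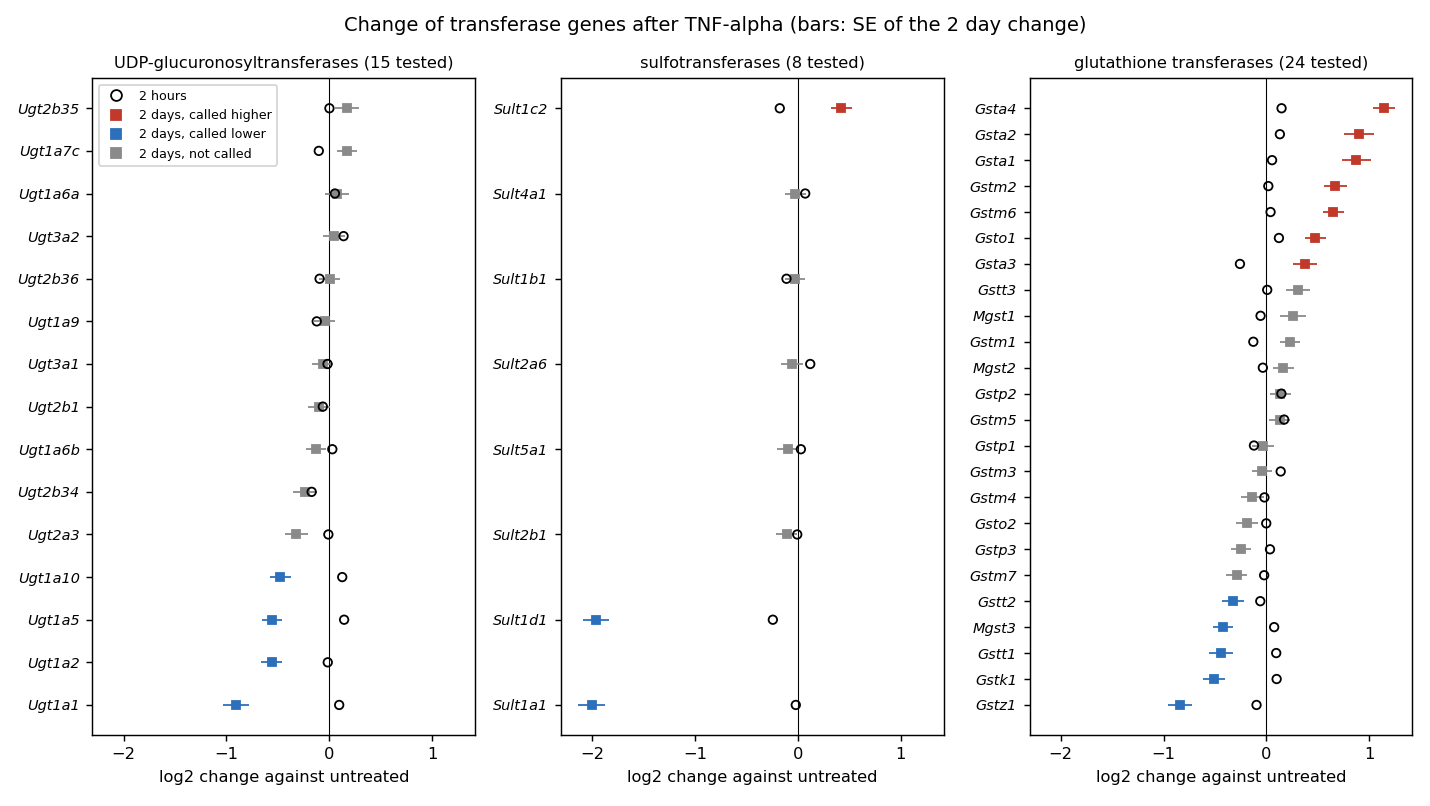
Log2 change of each of the 47 tested transferase genes (horizontal axis, log2 units) at 2 hours and at 2 days of TNFα against untreated cells, in 1 panel per enzyme class. Open circles are the 2 hour values and squares the 2 day values with bars for their standard error, red where called higher, blue where called lower and grey where not called. The 2 hour values lie between -0.26 and 0.17 with 0 called, while 19 genes are called at 2 days, from Sult1a1 at the low end to Gsta4 at the high end.

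The class medians themselves moved little between arrays. Taken as the median over a class's tested genes of the log2 difference from the untreated mean, the glutathione transferases stood at 0.07 and -0.07 on the untreated arrays and at 0.08 and 0.11 on the 2 day arrays. The UDP-glucuronosyltransferases stood at 0.05 and -0.05 on the untreated arrays and at -0.06 and -0.12 at 2 days. The sulfotransferases stood at 0.06 and -0.06 untreated and at -0.11 and -0.07 at 2 days, where the higher 2 day array lay just below the lower untreated one. The calls at 2 days were thus those of some members within each class. Among the sulfotransferases the median rests on dim probes. The 5 tested members that were not called read between 126 and 208 over all arrays, near the array medians of 143.

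Among the UDP-glucuronosyltransferases, all 4 called genes belonged to the Ugt1a group, in which 8 genes were tested with a median log2 change of -0.30. Ugt1a1, the enzyme that conjugates bilirubin, read 603 and 759 on the untreated arrays, 792 and 662 at 2 hours, and 407 and 320 at 2 days. Both 2 day arrays lay below all 4 others. The fall was 1.88-fold (log2 change -0.91, SE 0.13, adjusted p = 7.70e-06 by limma), or -1.12 after normexp. Ugt1a5 read 226 and 228 untreated, 258 and 244 at 2 hours, and 155 and 153 at 2 days, a log2 change of -0.56 (limma, SE 0.10, adjusted p = 1.95e-04). A second probe of Ugt1a5 gave -0.57. Ugt1a2 read 261 and 236 untreated, 241 and 250 at 2 hours, and 179 and 158 at 2 days. Its log2 change was also -0.56 (SE 0.10, adjusted p = 3.35e-04 by limma). Both are dim probes, and after normexp their changes were -1.11 for Ugt1a5 and -1.03 for Ugt1a2. Ugt1a10 read 8094 and 9089 untreated, 9689 and 9052 at 2 hours, and 6216 and 6124 at 2 days. It fell by 0.48 on the log2 scale (SE 0.10, adjusted p = 1.64e-03 by limma), and its other passing probes gave -0.62 and -0.73, both called. After normexp its change was again -0.48, but its adjusted p by limma was 0.106, so the call was lost.

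The Ugt1a genes overlap on one locus: each has its own first exon and promoter, and all share their downstream exons. Probe sequences were not used here, so which of these probes read the shared part and which a first exon is not known, and a signal named for one gene may hold transcripts of others. In the RefSeq gene order of GRCm38.p6 the group runs Ugt1a10, Ugt1a9, Ugt1a7c, Ugt1a6b, Ugt1a6a, Ugt1a5, Ugt1a2 and Ugt1a1. The 4 in the middle of that order, from Ugt1a9 to Ugt1a6a, were not called, with log2 changes of -0.04, 0.17, -0.13 and 0.08. The probes called lower were named for genes at its ends, Ugt1a10 on one side and the neighbours Ugt1a5, Ugt1a2 and Ugt1a1 on the other. The probes of Ugt1a9 and Ugt1a7c read close to the array medians of 143, where little of a fall can show. Other probes of Ugt1a6a gave 0.06 and -0.30, neither called. Of 6 probes of Ugt1a10 3 passed the filter, and the others read between 115 and 141 on all arrays, below the array medians. Whether the fall under this name is that of Ugt1a10 itself is thus not known. A link between position and change was not tested.

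None of the other UDP-glucuronosyltransferases was called. Over the 11 uncalled members of the class, which include the 4 Ugt1a genes just named, changes lay between -0.32 and 0.17, and adjusted p by limma between 0.0541 and 0.991. Of 10 Ugt2 genes 5 were tested. Ugt2b36, one of the Ugt2b enzymes that act on steroids and drugs, read 10960 and 10155 untreated, 9808 and 9968 at 2 hours, and 10800 and 10362 at 2 days, with overlapping groups and a log2 change of 0.00. The value nearest to a call was that of Ugt2a3, at -0.32 with an adjusted p of 0.0541 by limma. Its probe was dim, with both arrays above the array medians in the untreated group only. Both Ugt3 genes, whose enzymes use other sugar donors, were tested, at -0.06 for Ugt3a1 and 0.05 for Ugt3a2. Ugt2a1, Ugt2a2, Ugt2b5, Ugt2b37 and Ugt2b38 did not pass the filter on dim probes.

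**Figure D2:**
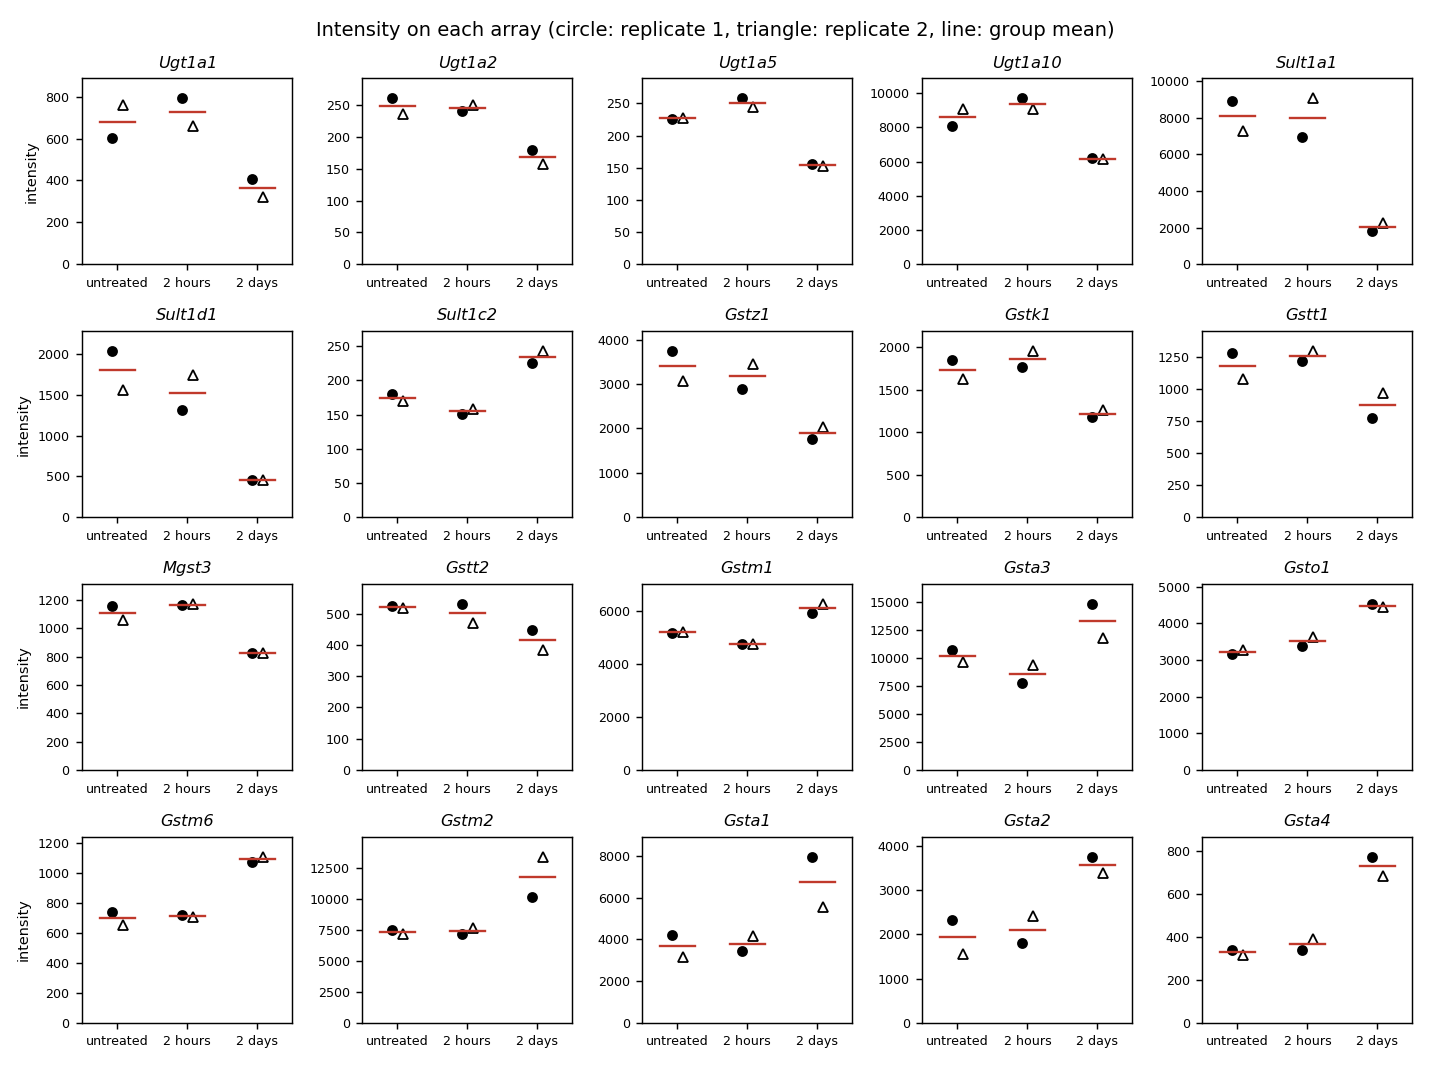
Intensity on each of the 6 arrays (vertical axes, linear scale, in deposited intensity units) for 20 transferase genes: the 19 called at 2 days and Gstm1. Circles are replicate 1, triangles replicate 2 and lines the mean of untreated, 2 hour or 2 day arrays; the 2 day points of Sult1a1 (1795 and 2244) lie below the other 4, and those of Gsta4 (773 and 686) above them.

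The sulfotransferases held the largest falls of all tested members. Sult1a1, the main phenol sulfotransferase of the liver, read 8940 and 7259 on the untreated arrays, 6968 and 9066 at 2 hours, and 1795 and 2244 at 2 days. Both 2 day arrays lay below the 4 others, while the untreated and 2 hour arrays overlapped. The fall was 4.01-fold (SE of the log2 change 0.13, adjusted p = 1.60e-11 by limma). Sult1d1, which sulfates dopamine and other catecholamines, read 2040 and 1567 untreated, 1311 and 1742 at 2 hours, and 458 and 459 at 2 days. It fell 3.90-fold (log2 change -1.96, SE 0.13, adjusted p = 1.74e-11 by limma), with the same separation of the 2 day arrays. A second probe of Sult1d1, close to the array medians, gave -0.07 and was not called, and the mean of both probes gave -1.02. Sult1c2 moved the other way: it read 180 and 169 untreated, 151 and 159 at 2 hours, and 226 and 243 at 2 days. It rose by 0.42 on the log2 scale (SE 0.10, adjusted p = 4.33e-03 by limma), or 0.78 after normexp. Without the second 2 day array the change was 0.37 and the call was lost (adjusted p = 0.0686 by limma), with 1 array left in that group.

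The remaining 5 tested sulfotransferases, all on dim probes, changed by -0.11 to -0.02, with adjusted p by limma from 0.62 upwards. The other 8 did not pass the filter, and their probes give no tested value here. These were Sult1c1, Sult1e1, the estrogen sulfotransferase, Sult2a1, Sult2a2 and Sult2a8, of the hydroxysteroid and bile acid group, Sult3a1, Sult3a2 and Sult6b1.

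Among the glutathione transferases, the 4 alpha class genes all rose, with a median log2 change of 0.89. Gsta4, which conjugates 4-hydroxynonenal, a product of lipid peroxidation, read 341 and 318 untreated, 342 and 389 at 2 hours, and 773 and 686 at 2 days. It rose 2.21-fold (log2 change 1.15, SE 0.11, adjusted p = 1.01e-08 by limma), or 2.68-fold after normexp, and both 2 day arrays lay above the 4 others. Gsta1, a broad-substrate alpha enzyme, read 4213 and 3133 untreated, 3435 and 4149 at 2 hours, and 7958 and 5577 at 2 days. It rose by 0.87 on the log2 scale (SE 0.14, adjusted p = 7.26e-05 by limma), and its other probes gave 1.16 and 0.86. Gsta2 read 2330 and 1551 untreated, 1798 and 2409 at 2 hours, and 3746 and 3374 at 2 days, a log2 change of 0.90 (limma, SE 0.14, adjusted p = 5.64e-05). After normexp both calls were lost while the changes stayed as large, at 0.89 for Gsta1 (adjusted p = 0.0783 by limma) and 0.94 for Gsta2 (adjusted p = 0.0756 by limma). The transcripts of these genes are closely alike, so their probes may share signal and the genes are not independent.

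Gsta3 had the smallest called rise of the class. It read 10753 and 9650 untreated, 7778 and 9341 at 2 hours, and 14820 and 11826 at 2 days, a log2 change of 0.38 (limma, SE 0.12, adjusted p = 0.0325). A second probe gave 0.09. The call was lost without the second untreated array (0.30, adjusted p = 0.219 by limma), without the first 2 day array (0.22, adjusted p = 0.420 by limma), after normexp (0.38), after cyclic loess and with the mean of its probes.

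Sequence before the start of the gene was read for the members from the RefSeq promoter table of build GRCm38.p6, in which 54 of the 61 had a promoter of full length. Gsta1 and Gsta2, which rose by similar amounts, are shown first because their promoters are partly one sequence: 184 of 261 aligned positions before the start were identical (70.5%), against 50.7% between Gsta1 and Gsta3. Capitals mark the longest run of bases that Gsta1 and Gsta2 share without a difference, 29 bases. Gsta1 lies at chr9:78230519-78230668 on the plus strand and Gsta2 at chr9:78347146-78347295 on the minus strand. The stretch of Gsta3, at chr1:21240439-21240497 on the plus strand, is also shown. Among the 7 genes that rose and had a promoter of full length, it alone held the core of the antioxidant response element, TGACNNNGC on either strand, here in capitals. Gsta4 had no such promoter and was not searched.
Gsta1: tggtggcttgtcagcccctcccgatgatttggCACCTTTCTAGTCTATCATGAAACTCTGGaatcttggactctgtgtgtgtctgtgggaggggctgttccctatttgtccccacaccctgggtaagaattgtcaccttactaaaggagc
Gsta2: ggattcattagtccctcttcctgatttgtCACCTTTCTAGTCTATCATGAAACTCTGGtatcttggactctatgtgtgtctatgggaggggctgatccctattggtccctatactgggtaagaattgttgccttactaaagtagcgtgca
Gsta3: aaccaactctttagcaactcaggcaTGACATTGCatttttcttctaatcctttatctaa

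The antioxidant response element core is bound by NRF2, a factor known for raising glutathione transferases. Within the 250 bases before the start it was found in 4 of 23 glutathione transferase genes with a promoter, 0 of 18 UDP-glucuronosyltransferase genes and 0 of 13 sulfotransferase genes, against 10.2% of 32851 promoters in the table. It was in 1 of 7 genes that rose and 0 of 10 that fell, counting those with a promoter of full length, which Gsta4 and Gstt2 lacked. The letters of an NF-kB site, GGG, any 2 bases and TTTCC on either strand, were in 0 of the members' promoters and in 1.41% of all promoters. These are matches of letters in this window and no more.

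Of the mu class, encoded in a cluster of 7 tested genes, 2 rose. Gstm2 read 7483 and 7117 untreated, 7177 and 7617 at 2 hours, and 10104 and 13355 at 2 days, a log2 change of 0.67 (limma, SE 0.11, adjusted p = 1.37e-04). Its other probes gave 0.60 and 0.74, and the call was lost after normexp at a change of 0.68 (adjusted p = 0.0708 by limma). Gstm6 read 740 and 655 untreated, 723 and 709 at 2 hours, and 1074 and 1108 at 2 days. It rose by 0.65 on the log2 scale (SE 0.10, adjusted p = 4.22e-05 by limma), its other probes gave 0.37 and 0.53, and the call was kept in all 16 alternatives run. The uncalled neighbour Gstm7 changed by -0.29 (adjusted p = 0.0702 by limma). Mu class transcripts are alike, so their probes may also share signal.

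Gsto1, an omega class enzyme that reduces dehydroascorbate, read 3175 and 3264 untreated, 3379 and 3633 at 2 hours, and 4526 and 4437 at 2 days. It rose by 0.48 on the log2 scale (SE 0.10, adjusted p = 1.23e-03 by limma), a call lost after normexp at a change of 0.49 (adjusted p = 0.0879 by limma).

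The 5 glutathione transferases that fell came from the zeta, kappa, theta and microsomal families. Gstz1, the maleylacetoacetate isomerase of tyrosine breakdown, read 3739 and 3060 untreated, 2897 and 3457 at 2 hours, and 1757 and 2027 at 2 days. It fell 1.79-fold (log2 change -0.84, SE 0.12, adjusted p = 7.68e-06 by limma) and kept its call in all 16 alternatives. Gstk1, found in mitochondria and peroxisomes, read 1851 and 1621 untreated, 1762 and 1954 at 2 hours, and 1176 and 1260 at 2 days, a log2 change of -0.51 (limma, SE 0.10, adjusted p = 1.11e-03). A second probe gave -0.70. Mgst3, a membrane-bound enzyme of the microsomal family, read 1154 and 1061 untreated, 1162 and 1171 at 2 hours, and 827 and 827 at 2 days, a log2 change of -0.42 (limma, SE 0.10, adjusted p = 4.23e-03). The calls of Gstk1 and Mgst3 were lost after normexp, at changes of -0.54 and -0.46, and that of Mgst3 also without the first untreated array (-0.36, adjusted p = 0.0698 by limma).

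The theta genes lie side by side as Gstt3, Gstt1, Gstt4 and Gstt2. Gstt1, which acts on small halogenated compounds, read 1282 and 1077 untreated, 1219 and 1293 at 2 hours, and 776 and 964 at 2 days. It fell by 0.44 on the log2 scale (SE 0.11, adjusted p = 9.19e-03 by limma). That call was lost after normexp (at -0.49), without the first untreated array (-0.32, adjusted p = 0.181 by limma) and without the first 2 day array (-0.29, adjusted p = 0.220 by limma). Gstt2 read 525 and 516 untreated, 530 and 470 at 2 hours, and 447 and 385 at 2 days. At -0.33 (SE 0.11, adjusted p = 0.0421 by limma) it lay just past the threshold, its second probe gave -0.10, and the call was kept in 7 of 16 alternatives and lost after normexp (at -0.41). Leaving out any one of 5 arrays ended it, with the smallest change, -0.22, without the second 2 day array. Gstt3, their neighbour, had a log2 change of 0.30 (adjusted p = 0.0923 by limma), and Gstt4 did not pass the filter.

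The 12 uncalled glutathione transferases changed by -0.29 to 0.30. They include all 3 pi class genes, of which Gstp1 read 30288 and 30710 untreated, 29091 and 27040 at 2 hours, and 26749 and 33102 at 2 days. Its 2 day arrays lay on both sides of the others (log2 change -0.04). Mgst1, the microsomal enzyme of the endoplasmic reticulum and outer mitochondrial membrane, had a log2 change of 0.26, and the first of its 2 day arrays lay within the range of the others: it read 14180 and 13741 untreated, 12378 and 14551 at 2 hours, and 14133 and 19691 at 2 days.

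**Figure D3:**
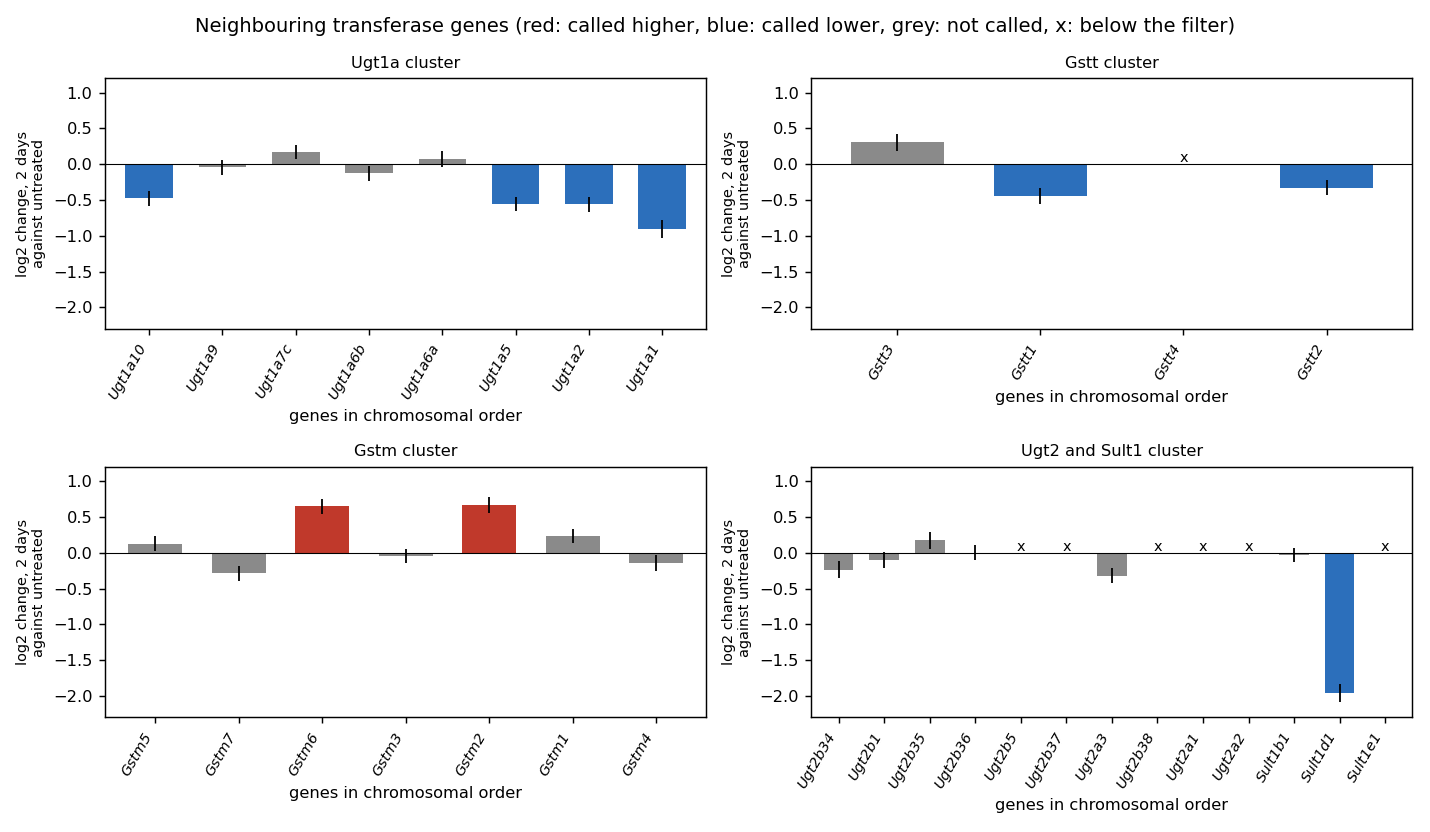
Bars give the log2 change at 2 days against untreated cells (vertical axes, log2 units) and thin lines its standard error, red for genes called higher, blue for called lower and grey for not called, for members that are neighbours in the RefSeq gene order (horizontal axes, in that order), in the Ugt1a, Gstt, Gstm and the Ugt2 with Sult1 groups; x marks genes that did not pass the filter. Called genes stand beside uncalled ones in each group, such as Sult1d1 (-1.96) in the Ugt2 and Sult1 group, where 0 of the 5 tested Ugt2 genes are called.

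The 2 day and 2 hour arrays were also compared directly. This comparison shares the 2 day arrays with the one against untreated cells, so its values are given beside those and are no independent support. Of the 47 genes 19 were called, 9 higher and 10 lower, where 15.3% of all genes tested were, 8.63% higher and 6.67% lower. By class, 4 UDP-glucuronosyltransferases fell, 1 sulfotransferase rose and 2 fell, and 8 glutathione transferases rose and 4 fell. Against untreated cells, Gstm1, a major mu class enzyme, was not called (0.23, adjusted p = 0.146 by limma), and against 2 hours it rose by 0.36 (adjusted p = 0.0125 by limma). It read 5198 and 5212 untreated, 4753 and 4779 at 2 hours, and 5946 and 6277 at 2 days. That call was lost without either 2 hour array (adjusted p by limma of 0.0768 and 0.0738), without the second 2 day array (0.114) and with the mean of its probes. The call of Gsto1 against 2 hours was lost without the first 2 hour array (adjusted p = 0.138 by limma) or either 2 day array (0.0836 and 0.0613), and that of Gstt1 without the first 2 day array (0.0625). Gstt2 was called against untreated cells and not against 2 hours. After normexp 8 of these 19 calls were lost: Gsta1, Gsta2, Gsta3, Gstm1, Gstm2, Gsto1, Gstt1 and Mgst3. After normexp Ugt1a7c, a dim probe, was called higher than at 2 hours (0.66, adjusted p = 0.0322 by limma), where its uncorrected change of 0.27 was not called.

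Genes that supply the cosubstrates, remove the conjugates or set the level of these enzymes were described from lists, each given with its count at 2 days against untreated cells, where 6.74% of all genes tested were called higher and 5.92% lower. Of 7 genes tested for UDP-glucuronate supply and glucuronide removal, 1 fell and 1 rose, with a median log2 change of -0.10. Ugp2, which makes UDP-glucose, the precursor of UDP-glucuronate, read 2638 and 2193 untreated, 2289 and 2714 at 2 hours, and 1036 and 880 at 2 days (log2 change -1.33, adjusted p = 3.68e-09 by limma). Gusb, the lysosomal enzyme that cleaves glucuronides, rose by 0.69 (adjusted p = 2.87e-05 by limma). Of 11 genes of sulfate and PAPS supply 1 fell, Suox, the sulfite oxidase, at -0.31, a call lost after normexp. The median of that list was 0.09, and 1 of 11 is near the share called lower over all genes.

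Of 16 genes of glutathione synthesis and recycling 2 rose and 6 fell, with a median of -0.17. The calls of Gpx4, which rose, and of Oplah, Chac1 and Hagh, which fell, were lost after normexp. Cbs, the entry enzyme of transsulfuration from homocysteine to cysteine, read 1420 and 1285 untreated, 1360 and 1465 at 2 hours, and 388 and 489 at 2 days (-1.63, adjusted p = 4.96e-11 by limma). Gclc, the catalytic subunit of the enzyme that limits glutathione synthesis, was lower at both times, at -0.55 after 2 hours, a call lost after normexp, and -0.76 after 2 days. Slc7a11, which imports cystine, moved the opposite way: it read 254 and 280 untreated, 292 and 366 at 2 hours, and 875 and 690 at 2 days (1.54, adjusted p = 5.54e-10 by limma).

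Of 7 exporters of conjugates and drugs 3 rose and 0 fell, with a median of 0.28. Abcc4, a pump of the sinusoidal membrane, rose by 1.03 (adjusted p = 2.74e-08 by limma), Abcc2, the canalicular pump for bilirubin glucuronides and glutathione conjugates, by 0.96 (adjusted p = 2.22e-06 by limma), and Abcb1b, a multidrug pump, by 0.84. Abcc2 read 608 and 585 untreated, 662 and 845 at 2 hours, and 1316 and 1024 at 2 days, with no overlap between the 2 day arrays and the others.

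Of 14 regulators of these enzymes 1 rose and 5 fell at 2 days, with a median of -0.23. The calls of Mafg, the 1 that rose, and of Rxra and Nr1h4, which fell, were lost after normexp. The largest falls were those of Nr1i2, the xenobiotic receptor PXR (-0.91), Hnf4a, a hepatocyte nuclear receptor (-0.82), and Cebpb, a factor of the acute phase response (-0.54, lost after normexp). Nfe2l2, which encodes NRF2, was called higher at 2 hours alone: it read 815 and 895 untreated, 1280 and 1410 at 2 hours, and 1107 and 918 at 2 days. Its change was 0.65 at 2 hours (adjusted p = 3.39e-04 by limma, lost after normexp at 0.156) and 0.24 at 2 days (adjusted p = 0.184 by limma). The fall from 2 hours to 2 days was itself called, at -0.41 (adjusted p = 9.02e-03 by limma), and was lost after normexp.

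Of 16 NRF2 target genes outside the 3 enzyme classes 5 rose and 2 fell at 2 days, with a median of 0.08. Those that rose were Slc7a11 (1.54), Abcc4 (1.03), Osgin1 (0.98), Srxn1 (0.36) and Akr1b8 (0.32). The calls of Srxn1 and Akr1b8 were lost after normexp. The list shares Slc7a11, Abcc4, Gclc, Gclm and Ugdh with the lists above, of which Ugdh did not pass the filter. Its largest change was the fall of Cyp2a5, a cytochrome P450, by 2.00 (adjusted p = 3.14e-13 by limma). At 2 hours Hmox1, the heme oxygenase, rose by 1.54 (adjusted p = 5.23e-11 by limma), and at 2 days it was back at 1582 and 1446 against 1441 and 1575 untreated. Nqo1, another textbook target, was at 0.14 after 2 days and was not called, on a dim probe that read 159 and 203 untreated. Of 10 relatives of the glutathione transferases 1 rose, Clic1, a chloride channel protein with the transferase fold, at 0.73.

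**Figure D4:**
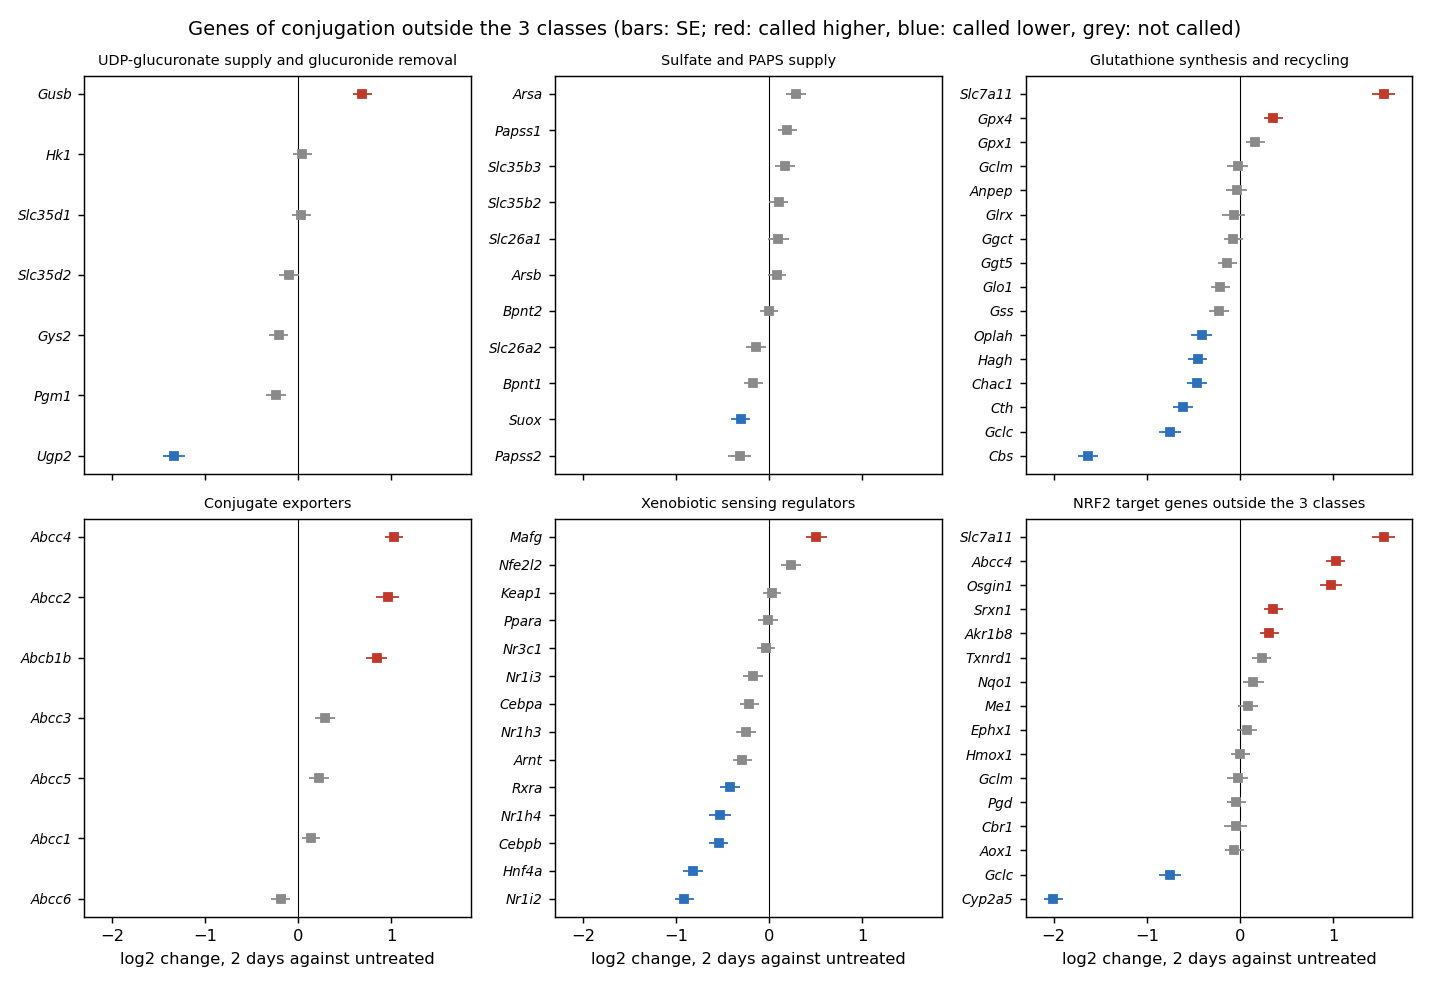
Log2 change at 2 days against untreated cells (horizontal axes, log2 units) for the tested genes of the cosubstrate, exporter, regulator and NRF2 target lists; each square is 1 gene with a bar for the standard error, red where called higher, blue where called lower and grey where not called. At 2 days the exporters include 3 called rises and 0 called falls, and the regulators 1 called rise and 5 called falls.

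Markers of the cell type and of other liver cells moved at 2 days as well. The summed intensity of 9 hepatocyte markers lay between 97461 and 102518 on the untreated and 2 hour arrays and was 58940 and 55829 at 2 days. Most of that sum was Apoa1 and Ttr. Of the 9, 5 were called lower. Ttr (-0.28), Asgr2 (-0.23), Serpina1a (-0.22) and Alb (-0.13) were not called, and the Alb probe was dim, at 144.6 to 174.5. Fewer hepatocytes and less RNA of the markers per cell cannot be told apart in bulk RNA. Of 5 bile duct markers 3 rose (Sox9, Cldn4 and Krt23). The keratins Krt7 (0.09) and Krt19 (0.19) were not called, and the defining markers Epcam and Cftr were below the filter. Sox9 was already called higher at 2 hours (0.79, adjusted p = 5.3e-06 by limma). The sum of the 5 lay between 4917 and 5940 on the untreated and 2 hour arrays and was 10047 and 11570 at 2 days. Of 6 stellate cell and fibroblast markers 2 rose (Acta2 and Vim) and 1 fell (Reln), with a sum of 4245 to 5642 before and of 7513 and 8405 at 2 days. Acta2 and Vim made up most of that sum on every array. Col1a1 (0.04), Col1a2 (0.03) and Des (0.15), all on dim probes, were not called. Col3a1, Lrat, Pdgfrb and Lum were below the filter. Of 7 macrophage markers 3 rose (C1qa, C1qb and C1qc), with sums of 1134 to 1187 before and 1359 and 1477 at 2 days. Adgre1 (-0.04), Lyz2 (-0.09), Csf1r (0.08) and Marco (0.30), all on dim probes, were not called. Clec4f, Cd5l and Ptprc were below the filter. The sum of 9 endothelial markers, with 1 called higher and 1 lower, was 1771 to 2017 before and 1847 and 1793 at 2 days. After normexp the calls of Krt23, Acta2, C1qc and both endothelial genes, Oit3 and Stab2, were lost. The part of these shifts in the transferase changes was not tested.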

How the data were processed

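The authors deposited 1 intensity per probe and array for 45281 probes, on a linear scale. Names of the software behind these values are not given in the sources used here. Per array, the intensities had the same range, from 96.54 to 47615.3, and sorted columns differed by at most 0.332%. Quantile normalization gives such columns, but the labels name no such step. Detection p-values were not used.

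Members, lists and tests were chosen with earlier results of these data known. Gene names came from the platform's annotation (34885 with 1 symbol, 18 with several, 10378 probes not listed) and 34807 were updated through the entrez identifier with RefSeq GRCm38.p6. Probes passed with 2 or more arrays above their 50th percentile, and a gene was represented by its passing probe with the highest mean. Of the 47 members that passed, 3 had both arrays above that level in only 1 group and 3 had them so in no group, and none of these was called. Log2 intensities of all 6 arrays and 13438 genes were fitted with limma 3.58.1 in R 4.3.3, with a mean per group and empirical Bayes moderation (residual degrees of freedom 3, prior 21.22), and p-values were adjusted by Benjamini-Hochberg. The small number of arrays limits the precision. In data simulated for the 2 day comparison, with 13438 genes of which 200 were changed, 90.7% of shifts of 0.5 and 100% of shifts of 1 (log2) were called, and 5.12% of calls were false. The simulated noise was independent and took its size from the fit itself, with no background, shared probe signal or spread between cultures. These shares thus check the computation and do not give the share of true calls in the real data.

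Array values are given for the 3 marker genes Ugt1a1, Sult1a1 and Gsta4 and for called members, up to 10 per class by size of change, and up to 3 called genes of each list are named per comparison. Gsta3, Gstt2, Gstm1, Ugt2b36, Gstp1, Mgst1 and Nqo1 were added after their values were seen. So were Krt7, Krt19, the other uncalled marker genes named, the uncalled genes named for a family or position and the marker genes named by call. List genes named beyond 3, for a call lost after normexp or as NRF2 targets that rose, were also added then. Alternatives were normexp with an offset of 16, an offset of 16 alone, median centring, cyclic loess, the mean over each gene's probes, a 70th percentile filter, no filter, trended robust variances, only the groups compared, a replicate block and each array left out in turn. Replicate numbers did not pair the arrays: same-numbered deviations correlated at -0.148, -0.075 and 0.036.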

Additional observations from a re-analysis of the deposited data

How the results depend on the processing

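Of the 19 transferase calls at 2 days against untreated cells, 8 were kept in all 16 alternatives (Ugt1a1, Ugt1a2, Ugt1a5, Sult1a1, Sult1d1, Gsta4, Gstm6 and Gstz1), as were 11 of 19 against 2 hours, and no called change reversed. Normexp moved most: 9 of 47 members were called at 2 days against untreated, 3 higher and 6 lower, with 2 glutathione transferases higher and 1 lower, and 4 were higher against 2 hours, 1 of them, Ugt1a7c, not called without it. The 10 calls against untreated cells that normexp ended had changes as large as before it. Over all genes it called 349 higher and 306 lower at 2 days, against 906 and 795. Leaving out 1 array at a time gave 0 to 1 sulfotransferases higher (0 without the second 2 day array), 2 to 5 glutathione transferases lower (2 without the first untreated array) and 6 to 8 higher, 4 to 5 UDP-glucuronosyltransferases lower, 2 sulfotransferases lower, and 0 members called at 2 hours. Against 2 hours it gave 7 to 9 members higher and 9 to 11 lower.

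With the replicate number as a block, the counts were 8 higher and 11 lower at 2 days and all member calls were kept. Over all genes the block called 230 higher and 133 lower at 2 hours, and a crossed pairing chosen after seeing the data called 321 higher and 297 lower. Without the first 2 hour array 156 and 53 genes were called at 2 hours, without the second 139 and 48. Fold changes of dim probes are limited by the background still in the intensities.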
